A study of Mus musculus with 18 samples.

Results

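The 10 Kupffer cell identity genes *Clec4f*, *Timd4*, *Vsig4*, *Cd163*, *Emr1*, *Cd5l*, *C1qa*, *Csf1r*, *Id3*, and *Spic* were chosen by name as genes known from resident liver macrophages. Some of them, such as *Csf1r*, *Emr1*, and *C1qa*, are known from macrophages more widely. *Emr1* is the older symbol of *Adgre1* and encodes the F4/80 antigen. Regions of open chromatin were counted as belonging to a gene when their midpoint lay in the gene body or within 10 kb of either end, on mm9 with the GENCODE vM1 annotation. By this rule, 28 of the 69499 regions in the list belonged to these genes. The regions come from fast-ATAC-Seq, an assay whose transposase cuts and tags DNA that is not packed away by nucleosomes, with 50000 liver macrophages (LMs) per reaction. The LMs came from male C57BL/6J mice that were injected at an age of 8 weeks and then all fed a high-fat, high-sucrose diet (HFHSD) for 4 weeks. *Reverb*-hDKO mice carried floxed *Rev-erb*α and *Rev-erb*β alleles and received AAV-TBG-CRE, a virus in which the TBG promoter restricts CRE to hepatocytes. *Reverb/Scap*-hTKO mice carried floxed *Scap* alleles as well and received the same virus, and control mice received AAV-TBG-GFP. The LMs themselves were therefore not the cells targeted for deletion in any group. In the paper, LMs include both resident Kupffer cells and monocyte-derived macrophages, whereas the sample labels read KC. The paper reports that monocyte-derived macrophages were increased in *Reverb*-hDKO livers and that further *Scap* deletion reversed this. The share of each cell type in these libraries is unknown. Each of the 3 genotypes was sampled at ZT10 and ZT22 (hours after lights on) with 3 replicates, giving 18 libraries. The list pools these libraries and gives positions alone. Neither genotypes nor times could be compared, the depth behind a region is unknown, some libraries may lack a given region, and no test was possible. All values below are therefore descriptions, set beside the same values over all protein-coding genes or all regions where these were counted.

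Kupffer cells are the macrophages that reside in the sinusoids of the liver. They take up dying cells, aged erythrocytes, and complement-coated particles from the blood, and they depend on signaling through CSF1R. ETS-family factors such as PU.1 and SPIC, MAF-family factors, nuclear receptors such as LXRα, and signals from neighboring cells through Notch (RBPJ) and TGF-β/BMP (SMAD) are known to shape their gene expression. Several of the genes described here, such as *Clec4f*, *Timd4*, and *Vsig4*, are used as markers that set resident Kupffer cells apart from newly recruited monocyte-derived macrophages.

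An open start, that is, a region within 1000 bp of an annotated transcript start, was found for 7 of the 10 genes (70.0%), and 57.1% of the 22367 protein-coding genes had one. When only regions of at least 200 bp counted, the order turned, with 2 of the 10 genes beside 34.8% of protein-coding genes. The 7 genes were *Clec4f*, *Timd4*, *Emr1*, *Cd5l*, *C1qa*, *Id3*, and *Spic*. The sequences of open regions at starts are shown because they hold DNA close before a first exon of a Kupffer cell gene. Those at *Timd4* and *C1qa* end 17 and 42 bp before the start. Those of *Cd5l* and *Id3* are not shown because they lay mostly or wholly in exons. *C1qc* and *C1qb*, which encode the other chains of C1q and have their starts within 10 kb of the *C1qa* gene, are included. Each sequence is from mm9, is written 5′ to 3′ in the direction of transcription, and leaves out any part of the region in an exon. Capitals mark any of the 12 motifs described further on and the ETS core GGAAGT, on either strand.
*Clec4f* start (chr6:83606182-83606295, minus strand): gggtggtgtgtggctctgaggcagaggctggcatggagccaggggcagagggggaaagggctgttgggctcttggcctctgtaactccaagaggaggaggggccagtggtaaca
*Timd4* start (chr11:46624135-46624285, plus strand): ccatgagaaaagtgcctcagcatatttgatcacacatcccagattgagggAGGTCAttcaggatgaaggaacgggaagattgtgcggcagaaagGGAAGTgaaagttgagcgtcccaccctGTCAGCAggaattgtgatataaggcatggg
*Emr1* start (chr17:57498034-57498108, plus strand): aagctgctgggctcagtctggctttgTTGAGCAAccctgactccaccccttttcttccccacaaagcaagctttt
*Spic* start (chr10:88145769-88145891, minus strand): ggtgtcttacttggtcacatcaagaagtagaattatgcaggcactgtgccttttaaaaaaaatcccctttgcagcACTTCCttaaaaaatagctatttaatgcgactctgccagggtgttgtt
*C1qa* start (chr4:136454760-136454959, minus strand): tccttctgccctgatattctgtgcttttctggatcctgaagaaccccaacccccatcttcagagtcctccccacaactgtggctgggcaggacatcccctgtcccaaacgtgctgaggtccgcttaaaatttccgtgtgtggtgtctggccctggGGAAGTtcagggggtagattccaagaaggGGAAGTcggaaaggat
*C1qc* start (chr4:136448981-136449093, minus strand): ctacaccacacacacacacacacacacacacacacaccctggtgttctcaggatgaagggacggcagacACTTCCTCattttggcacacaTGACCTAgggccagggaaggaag
*C1qb* start (chr4:136442103-136442300, minus strand): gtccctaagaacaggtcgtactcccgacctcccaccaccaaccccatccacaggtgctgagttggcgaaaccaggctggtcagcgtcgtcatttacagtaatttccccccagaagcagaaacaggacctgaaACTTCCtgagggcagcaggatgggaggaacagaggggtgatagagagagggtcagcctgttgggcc
The *Timd4*, *Spic*, and all 3 C1q sequences held the ETS core, and *C1qa* held it at 2 places. In *C1qc* the core was part of the longer PU.1/ETS motif, and a REV-ERB/ROR motif followed it. The *Clec4f* sequence held none of the motifs.

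The genes differed widely in how many regions they held, as the map of the gene windows shows. All 10 had at least 1 region, as did 74.4% of protein-coding genes. *Csf1r* held 6 regions, *Id3* held 5, *Clec4f* and *C1qa* held 4 each, *Timd4*, *Cd5l*, and *Spic* held 2 each, and *Vsig4*, *Emr1*, and *Cd163* held 1 each. Because the genes range from 2259 bp (*Id3*) to 124844 bp (*Emr1*) in length, regions per 10 kb of gene body and flanks were also counted. This scale does not remove length, because the 10 kb flanks make up most of the window of a short gene. All 4 regions of *C1qa*, for example, lay in its flanks. On this scale *Id3* (2.25) and *C1qa* (1.75) were highest, followed by *Csf1r* (1.29) and *Clec4f* (1.26). *Emr1* was lowest, with 0.069 regions per 10 kb. The median of the 10 genes was 0.632 and that of all protein-coding genes was 0.470, and with flanks of 20 kb these were 0.481 and 0.474. Only 4.09% of protein-coding genes were denser than *Id3*, whereas 73.1% were denser than *Emr1* and 70.2% were denser than *Vsig4*. Together the 28 regions covered 5124 of 497298 bp in the windows (1.03%). Open regions covered 0.486% of the chromosomes, but these also hold long stretches far from genes, so the 2 shares are not comparable. The share covered in the windows of all protein-coding genes was not computed. By position, 7 regions lay in the upstream flanks, 9 in the downstream flanks, 8 in introns, and 4 in exons. The downstream regions include those at the starts of *C1qc* and *C1qb*. The same split over the windows of all protein-coding genes is not given here.

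**Figure D1:**
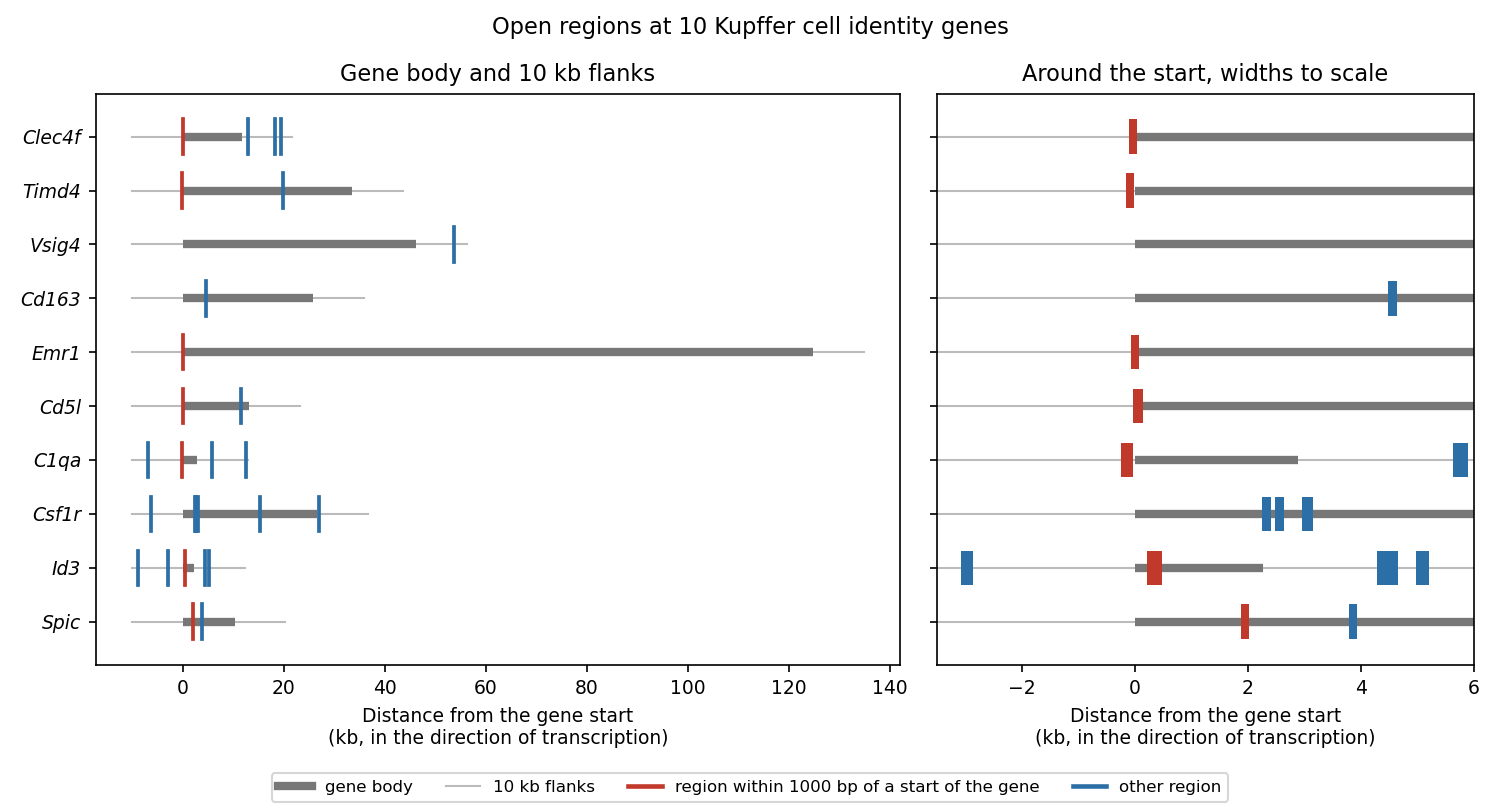
Midpoints of the open regions at the 10 Kupffer cell identity genes, by distance from the gene start in kb in the direction of transcription (left, whole gene body and 10 kb flanks; right, the surroundings of the start with region widths to scale). Red regions lie within 1000 bp of a start of the gene and blue ones do not: *Vsig4*, *Cd163*, and *Csf1r* have no red region, and 3 regions of *Csf1r* lie together 2327 to 3056.5 bp after its start.

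Among the surface receptors, *Clec4f* (ENSMUSG00000014542.2, mm9 chromosome 6, 83594536 to 83606181, minus strand), the C-type lectin receptor by which Kupffer cells are often recognized, had its region 1 centered 39 bp before the start. The other 3 regions of *Clec4f* all lay beyond its 3′ end, with midpoints 12849, 18224, and 19496 bp after the start. None lay in the gene body, and all 4 had the width that is commonest in the list. *Timd4* (ENSMUSG00000055546.6, chromosome 11, 46624302 to 46657834, plus strand), which encodes a phosphatidylserine receptor for dying cells, had 1 region centered 92 bp before the start. Its other region lay in intron 5, 19795 bp after the start. No further region of *Timd4* appeared when the flanks were widened to 20 kb, whereas *Clec4f* then had 7.

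*Emr1* (ENSMUSG00000004730.7, chromosome 17, 57498109 to 57622952, plus strand), the adhesion receptor F4/80 that is used to identify mouse macrophages, held a single region whose midpoint coincided with the first base of the gene. The rest of the gene, with 22 exons in its longest transcript, held no region. The next region downstream of the *Emr1* region was 1463969 bp away from it, a stretch in which 3 protein-coding genes start. Within 20 kb of *Emr1* there were 4 regions, so the other 3 lay upstream of the gene.

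*Vsig4* and *Cd163* had no open start. *Vsig4* (ENSMUSG00000044206.3, chromosome X, 93442542 to 93488777, minus strand) encodes a receptor for complement C3 fragments, and the region nearest to its start was 20837 bp away. The region counted for *Vsig4* lay in its downstream flank (chromosome X, 93435062 to 93435250), with its midpoint 53621 bp after the start. This midpoint was 125 bp before the start of *F630028O10Rik* (ENSMUSG00000078122.3), a transcript on the opposite strand that contains *Mir223*, the gene of a microRNA known from myeloid cells. *Cd163* (ENSMUSG00000008845.3, chromosome 6, 124254669 to 124280545, plus strand) encodes the scavenger receptor for hemoglobin bound to haptoglobin. Its only region lay 4557 bp after the start, with 135 bp of it in exon 4. The region of *Vsig4* and the stretch directly before each of these starts are shown to set them beside the open starts above, with the same motifs in capitals.
*Vsig4* downstream region (chrX:93435062-93435250, minus strand): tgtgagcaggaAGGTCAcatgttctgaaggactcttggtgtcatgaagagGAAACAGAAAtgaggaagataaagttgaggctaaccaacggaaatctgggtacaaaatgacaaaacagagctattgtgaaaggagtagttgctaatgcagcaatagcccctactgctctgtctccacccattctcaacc
*Vsig4* before the start (chrX:93488778-93488928, minus strand): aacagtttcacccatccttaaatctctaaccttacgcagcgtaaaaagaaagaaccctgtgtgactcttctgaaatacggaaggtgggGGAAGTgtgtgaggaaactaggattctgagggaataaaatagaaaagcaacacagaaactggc
*Cd163* before the start (chr6:124254518-124254668, plus strand): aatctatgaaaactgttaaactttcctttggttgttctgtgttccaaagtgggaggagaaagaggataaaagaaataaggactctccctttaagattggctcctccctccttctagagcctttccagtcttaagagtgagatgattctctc
The *Vsig4* downstream region held an IRF motif and, near its edge, a nuclear receptor site. The *Vsig4* sequence before the start held the ETS core, and that of *Cd163* held none of the letters searched.

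The secreted proteins were *Cd5l* and *C1qa*. *Cd5l* (ENSMUSG00000015854.6, chromosome 3, 87161803 to 87174996, plus strand) encodes a scavenger-receptor protein of the blood that is also known as AIM. Its start region was centered 58 bp after the start, and 144 of its 171 bp lay in exon 1. The second region of *Cd5l* lay in intron 5, 11542 bp after the start, and *Fcrl1* had the nearest start of a protein-coding gene, 6964 bp away. *C1qa* (ENSMUSG00000036887.5, chromosome 4, 136451832 to 136454718, minus strand) encodes a chain of C1q, which begins the classical complement cascade and is made largely by macrophages. The 4 regions counted for *C1qa* comprised 3 at the starts of the C1q genes and 1 further upstream. The region at *C1qa* was centered 141.5 bp before its start. That at *C1qc* (ENSMUSG00000036896.5, 136445719 to 136448980) was centered 21.5 bp inside the gene, and that at *C1qb* (ENSMUSG00000036905.8, 136436044 to 136442102) was centered 96 bp before the start. The 3 starts span 12616 bp on the same strand, and no other region lay between them. The fourth region was 6856 bp upstream of *C1qa* and held 3 kinds of motif. The region at *C1qc* and the widest *Id3* region also held 3 kinds over their whole width, the most of any of the 28 regions. At *C1qc*, however, the nuclear receptor site is contained in the REV-ERB/ROR motif. A wider region has more room for motifs, and within 75 bp of its midpoint the widest *Id3* region held 1 kind. The share of all regions with 3 kinds is not given here, so these counts have no background. The *Cd5l* intron region is shown because it was 1 of the 2 with the full PU.1/ETS motif, and the *C1qa* upstream region because of its 3 motifs, with capitals as above.
*Cd5l* intron 5 (chr3:87173270-87173420, plus strand): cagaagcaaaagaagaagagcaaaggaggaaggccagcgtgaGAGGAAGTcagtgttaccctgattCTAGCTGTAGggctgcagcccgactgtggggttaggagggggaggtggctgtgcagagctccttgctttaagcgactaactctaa
*C1qa* upstream (chr4:136461499-136461649, minus strand): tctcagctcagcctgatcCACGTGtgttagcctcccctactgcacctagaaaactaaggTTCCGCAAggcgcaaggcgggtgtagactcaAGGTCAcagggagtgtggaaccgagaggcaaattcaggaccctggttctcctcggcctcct
In *Cd5l*, the PU.1/ETS motif GAGGAAGT was followed by a MEF2 motif. In the *C1qa* upstream region, an E-box, a C/EBP motif, and a nuclear receptor site followed each other.

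The transcriptional regulators *Id3* and *Spic* differed from each other in the kind of region they held. *Id3* (ENSMUSG00000007872.3, chromosome 4, 135699412 to 135701670, plus strand) encodes an inhibitor of DNA binding by basic helix-loop-helix factors that is known to be needed for Kupffer cell development. Its 5 regions lay 8973 and 2976 bp upstream of the start, 347 bp after it in exon 1, and 4472 and 5089 bp after it, beyond the 3′ end. The region at 4472 bp was 375 bp wide, and 0.614% of all regions were at least as wide. Open regions covered 5.51% of the *Id3* window, against 0.104% for *Emr1*. The neighborhood of *Id3* was also rich in regions, with 12 within 20 kb and 24 within 50 kb. *Spic* (ENSMUSG00000004359.9, chromosome 10, 88137517 to 88147760, minus strand) encodes an ETS-family factor of macrophages that recycle iron from erythrocytes. Its region 1 lay 1944 bp after the gene start as annotated but 48 bp before the start of other *Spic* transcripts, in intron 1 of the longest transcript. The second region of *Spic* lay in the same intron, 3862 bp after the gene start. The *Id3* region 2976 bp upstream is shown as an example of its CpG-rich regions, with the SMAD motif GGCGCC in capitals.
*Id3* upstream (chr4:135696329-135696543, plus strand): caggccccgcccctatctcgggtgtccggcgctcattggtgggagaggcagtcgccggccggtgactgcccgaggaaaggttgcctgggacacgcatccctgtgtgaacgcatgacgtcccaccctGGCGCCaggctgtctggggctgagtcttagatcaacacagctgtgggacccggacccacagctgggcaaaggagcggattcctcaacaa
This sequence held 9 CpG within 75 bp of its midpoint, whereas the *Spic* start sequence above came from a region with 2.

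A width of at least 200 bp was reached by 9 of the 28 regions (32.1%) and by 30.7% of all regions. All 9 lay in the windows of *Id3*, *Csf1r*, and *C1qa*, which held 15 regions. These 3 genes are named because they had the widest regions, and those of *C1qa* include the regions at the *C1qc* and *C1qb* starts. The widest of the 13 regions at the other genes was 189 bp, at *Vsig4*. Of the 28 regions, 17 (60.7%) had exactly the commonest width of the list, as did 46.5% of all regions, and none was narrower. At *Clec4f*, *Timd4*, *Spic*, *Emr1*, and *Cd163* every region had this width. The 28 regions were 183 ± 52.7 bp wide and all regions were 186 ± 48.5 bp wide (mean ± SD among regions of 1 list).

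*Csf1r* (ENSMUSG00000024621.8, chromosome 18, 61265226 to 61291803, plus strand), the receptor for CSF1 and IL-34 on which macrophages depend, had the most regions but no open start. The region nearest to its gene start was 2252 bp away, and 1945 bp from the start of another transcript. Of its 6 regions, 3 lay together in intron 1 of the longest transcript, with midpoints 2327, 2559, and 3056.5 bp after the start and gaps of 81 and 318 bp between them. From the first to the last base this group spanned 909 bp. An enhancer of *Csf1r* known as FIRE lies in the first intron, and whether its borders match these regions was not tested. The other regions of *Csf1r* lay 6356 bp upstream, in intron 10 (238 bp wide, of which 224 bp are an exon of another *Csf1r* transcript), and 27064 bp after the start, inside the neighboring gene *Hmgxb3*. Apart from *Csf1r*, regions at most 500 bp apart were found only at *Id3*, where the 2 downstream regions were 313 bp apart.

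The open starts of the Kupffer cell genes other than *Id3* held few CpG dinucleotides. Such dinucleotides mark the promoters of many broadly used genes, and 50.8% of regions near a protein-coding start had 10 or more within 75 bp of the midpoint, the stretch in which CpG were counted. The windows of the 10 genes held 9 regions within 1000 bp of a protein-coding start (32.1% of 28, beside 28.9% of all regions), those of *C1qc* and *C1qb* included. At most 3 CpG were found in 8 of these 9, beside 20.03% of all regions near a start. *Clec4f* had 0 CpG at its start, *Emr1* and *Cd5l* had 1, *Spic* had 2, and *Timd4* and *C1qa* had 3. *Id3* alone stood at the other end, with 11 CpG at its start. Over all 28 regions the median was 2 CpG, and over all regions it was 3. The 4 regions with 9 or more CpG all belonged to *Id3*, with 9, 11, 19, and 11, and 18.6% of all regions had that many. Outside *Id3*, the highest value was 6, in the *C1qa* upstream region. The GC content had a median of 53.6% and ran from 40.4% at the *Spic* start to 76.8% in the widest *Id3* region.

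**Figure D2:**
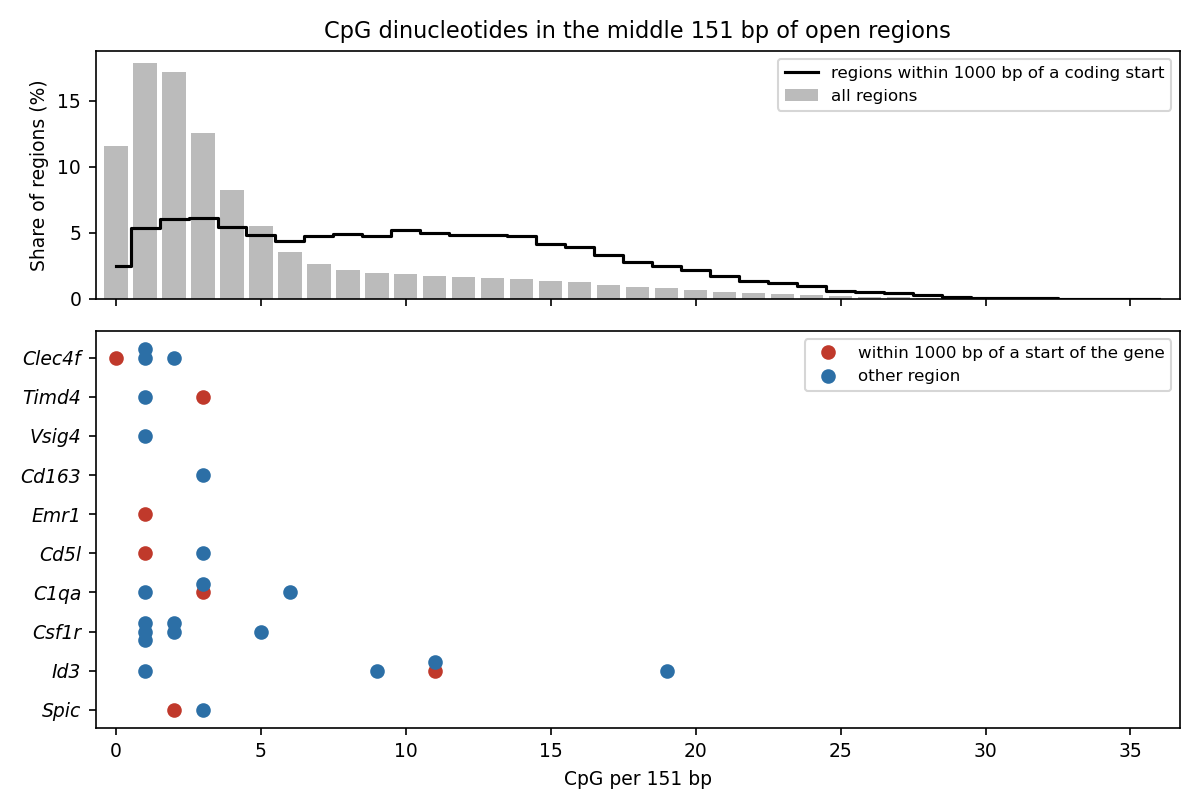
CpG dinucleotides within 75 bp of the midpoint of open regions, as the share of all regions (gray bars) and of regions within 1000 bp of a coding start (black line) above, and as 1 point for each of the 28 regions by gene below (red, within 1000 bp of a start of the gene; blue, other). All points outside *Id3* lie at 6 or below, and 4 of the 5 *Id3* regions lie at 9 or above.

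Motifs of 12 kinds were then searched on both strands within 75 bp of the midpoint of each region, so that all stretches had the same length. The ETS-type motif of PU.1, GAGGAAGT, was in 2 of the 28 regions (7.14%, 95% Wilson interval 1.98% to 22.6%), in *Cd5l* intron 5 and at the *C1qc* start, and in 3.34% of all regions. The MAF site TGCTGAC was also in 2, at the *Timd4* start and in a downstream region of *Clec4f*, and in 4.42% of all regions. The nuclear receptor site AGGTCA was in 5 (17.9%), at *Timd4*, *Csf1r*, *Cd163*, and 2 *C1qa* regions, and in 15.8% of all regions. Over the whole width of the regions, the *Vsig4* region shown above was the sixth, and 18.4% of all regions held the site. Its extended form TAGGTCA, which REV-ERB and ROR bind and which contains AGGTCA, was in 1 (3.57%), the region at *C1qc*, and in 2.05% of all regions. The SMAD motif (GTCTAGAC or GGCGCC) was in 3 (10.7%) and in 4.87% of all regions, and all 3 were regions of *Id3*, a known target of BMP signaling. GGCGCC contains a CpG, and the motif was in 11.1% of regions near a protein-coding start and in 2.33% of the others. Over the whole width it was in 4 of the 28 regions and in 6.24% of all regions, and the fourth was a region in *Csf1r* intron 1. The C/EBP motif TTGCNNAA was in 3, at the *Emr1* start, in *Csf1r* intron 10, and upstream of *C1qa*, and in 8.82% of all regions.

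The remaining motifs were in at most 2 regions, either within 75 bp of the midpoint or over the whole width. The MEF2 motif CTANNNNTAG was in 2, in *Cd5l* intron 5 and *Csf1r* intron 1, and in 1.99% of all regions. RBPJ (GTGGGAA) was found upstream of *Id3* and in 3.13% of all regions, IRF (GAAANNGAAA) in the *Vsig4* region and in 1.9% of all regions, and AP-1 (TGAGTCA or TGACTCA) in *Cd163* and in 5.69% of all regions. Over the whole width, AP-1 was also in the *Csf1r* intron 10 region (6.56% of all regions). The E-box CACGTG was in the *C1qa* upstream region and in 5.01% of all regions, and over the whole width it was also in the widest *Id3* region (6.08% of all regions). The sterol response element TCACNCCAC was within 75 bp of the midpoint in none of the 28 (Wilson upper limit 12.1%) and in 0.717% of all regions. Nearer to the edge, 179 bp from the midpoint, the widest *Id3* region did hold it, as did 0.901% of all regions over the whole width. For all 12 motifs the Wilson interval of the 28 regions contained the share of all regions, so with 28 regions no difference was detectable in these stretches. These intervals cover counting error only, and regions of the same gene share a locus. In these stretches 13 of the 28 regions (46.4%) held none of the 12 motifs, as did 55.4% of all regions.

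**Figure D3:**
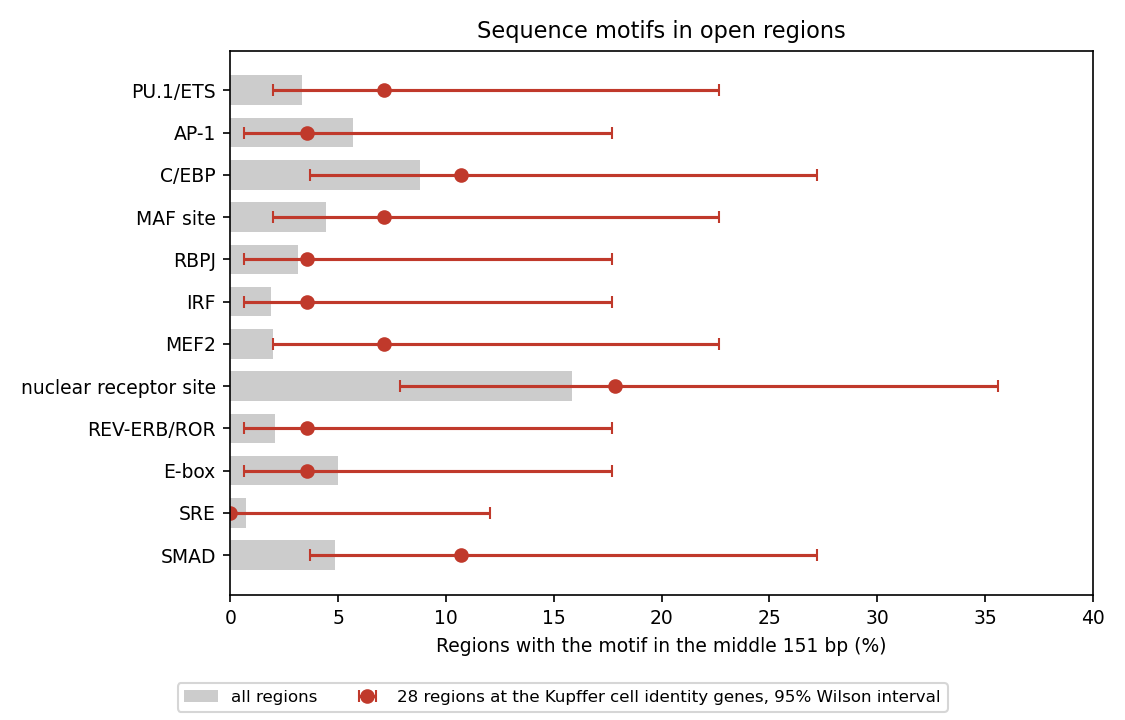
Share of regions with each motif within 75 bp of the midpoint, in percent, for all regions (gray bars) and for the 28 regions at the Kupffer cell identity genes (red points with 95% Wilson intervals). Every interval contains the end of its gray bar, with the widest interval at the nuclear receptor site (5 of 28 regions).

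The shorter ETS core GGAAGT, which the PU.1/ETS motif contains, was in 8 of the 28 regions (28.6%, 95% Wilson interval 15.3% to 47.1%) and in 18.2% of all regions. These 8 were at the starts of *Timd4*, *Spic*, *C1qa*, *C1qc*, and *C1qb*, upstream of *Id3*, in *Cd5l* intron 5, and in *Csf1r* intron 10. Of the 9 regions near a protein-coding start, 5 held it, beside 16.5% of all regions near a start and 19.4% of the 4012 such regions with at most 3 CpG. This division by starts was chosen after the values had been seen, and 3 of the 5 regions belong to the C1q genes, so it was not tested. A stretch of the same length directly before the annotated gene start, whether open or not, was also searched. The full PU.1/ETS motif was found there for 0 of the 10 genes and for 1.57% of protein-coding genes. A rough upper limit for 0 of 10, taken as 3 of 10, is 30.0%. All 12 motifs were searched there, and the nuclear receptor and MAF sites had the highest counts. The nuclear receptor site was found for 4 of the 10 genes, *Timd4*, *Id3*, *Spic*, and *Csf1r*, and for 7.57% of protein-coding genes. The MAF site was found for 2, *Timd4* and *C1qa*, and for 2.33% of protein-coding genes. AP-1 (*Csf1r*), C/EBP (*Emr1*), and RBPJ (*Spic*) were each found for 1, and for 2.41%, 5.06%, and 3.02% of protein-coding genes. The remaining motifs were found for none of the genes, and for 0.590% (sterol response element) to 8.38% (SMAD) of protein-coding genes.

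The Kupffer cell identity genes were then set beside 6 other lists of genes, with the open starts and densities of each. These lists were chosen with earlier results of these data known, and differences between them were not tested. Of 10 other genes of Kupffer cells, 7 had an open start, and *Clec1b*, *Marco*, and *Folr2* did not. Their median of 1.85 regions per 10 kb was above the 0.632 of the identity genes, with all but *Clec1b*, *Marco*, and *C6* at 1.56 or more. Of 9 genes of monocytes and recruited macrophages, 2 (*Itgam* and *Trem2*) had an open start, at a median density of 0.653. *Ly6c2*, *Ccr2*, *Cx3cr1*, *Chi3l3*, *Plac8*, *Gpnmb*, and *Spp1* had none. Of 8 genes of macrophages of other tissues, 5 had an open start (all but *Gpr34*, *Siglec5*, and *Car4*), with a median of 0.554.

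Genes of other liver cells were open at their starts as well. All of 10 liver endothelial genes except *Cdh5* had an open start (median density 1.21), and so did all of 10 hepatocyte genes except *Serpina1a* (0.991). Of 10 neuron and muscle genes, *Syn1* and *Gfap* had one (0.0547), and *Neurod1*, *Nefl*, *Gad1*, *Slc17a7*, *Myh6*, *Actn2*, *Ckm*, and *Myod1* did not. How much chromatin of monocyte-derived macrophages, endothelial cells, or hepatocytes contributed to the regions at the Kupffer cell genes was not tested. In a pooled list a few cells or libraries cannot be told apart from all of them. How the LMs were isolated for this assay is not given in the sources used here.

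**Figure D4:**
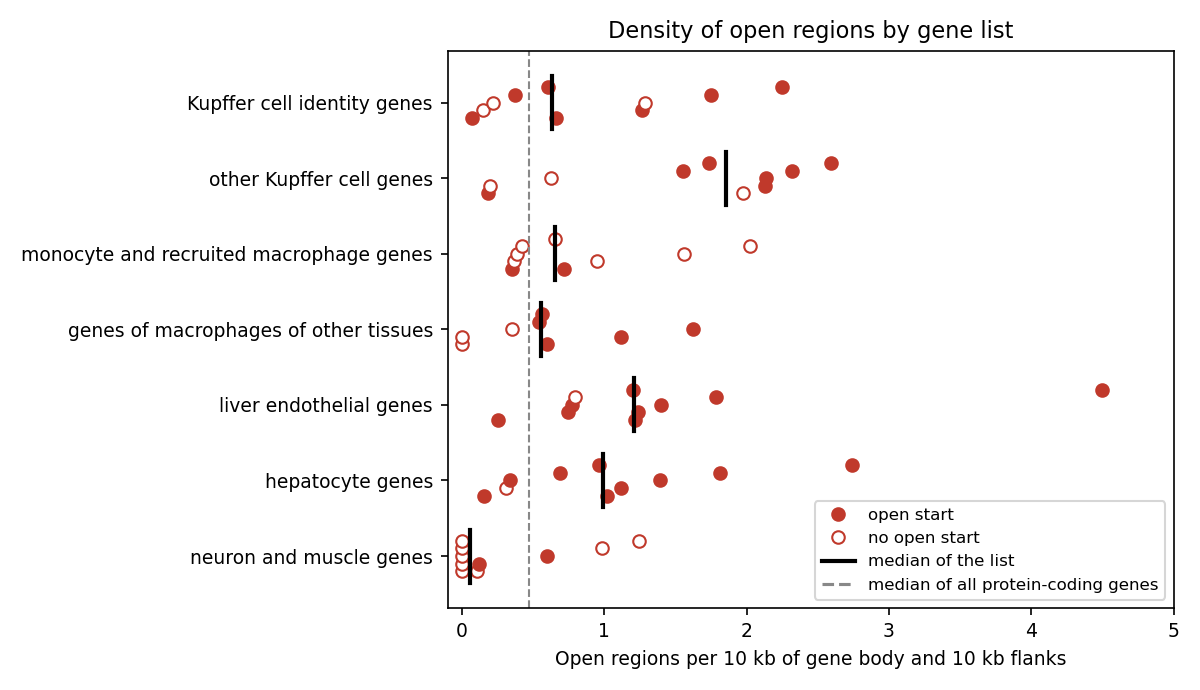
Open regions per 10 kb of gene body and 10 kb flanks for each gene of 7 lists (filled points, open start; empty points, no open start), with the median of each list as a black bar and the median of all protein-coding genes (0.470) as a dashed line. The Kupffer cell identity genes run from 0.069 (*Emr1*) to 2.25 (*Id3*) around a median of 0.632.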

How the data were processed

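Fast-ATAC-Seq of LMs gave 18 libraries in 6 groups of 3. The authors used the public ATAC-Seq pipeline of the Kundaje laboratory, per the study's methods. Peak calling followed the pooling of replicates, so a peak belongs to a pool of libraries and not to a single one. The submitters' processing notes name Bowtie, HOMER, and mm9, while the caller that ran within the pipeline, the threshold it used, and the rule for joining peaks are not given in the sources used here. The deposited list holds positions only, with no count, score, or library, so depth, precision, and spread between replicates are unknown. Starts are counted from 0 there and are given here from 1.

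Regions were joined to GENCODE vM1 genes on NCBIM37, the assembly behind mm9. An open start was a region overlapping the 1000 bp on either side of any annotated transcript start. Motifs were searched by exact letters on both strands within 75 bp of each midpoint, over 69362 regions on chromosomes 1 to 19, X, and Y. A search of the whole width for every motif was added after seeing the data. All 10 genes were named, along with other genes holding one of their regions and, of the lists, genes without an open start. Genes, lists, and motifs were chosen with earlier results of these data known. Of the monocyte list, 1 gene is not reported here. Alternatives changed the flank, the distance from the start, the width of regions, the joining of regions, and the motif. Intervals are 95% Wilson intervals, and the rough upper limit for 0 of 10 genes is 3 of 10. The search for motifs and the assignment of regions were first tested on simulated data. Python 3.11.15, NumPy 2.4.6, pandas 2.3.3, and SciPy 1.17.1 were used.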

Additional observations from a re-analysis of the deposited data

How the results depend on the processing

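No paired analysis was possible because deposited regions carry no measurement per library. The 28 regions became 12 without flanks and 9 when a width of at least 200 bp was asked for, and were 21 to 42 under the other settings. One setting, which leaves out regions inside another gene (25), was chosen after seeing the data. Of the 7 open starts, 2 (*Id3* and *C1qa*) had a region of at least 200 bp, beside 34.8% of protein-coding genes, and the other distances gave 6 to 8. *Spic* was lost when only the 5′ end of the gene counted, and *Csf1r* was gained at 2000 bp. The median density was 0.342 regions per 10 kb without flanks (0.138 for protein-coding genes) and 0 for regions of at least 200 bp (0.0955). With 20 kb flanks the 2 medians were close, at 0.481 and 0.474. The share with the PU.1/ETS motif was 28.6% with the ETS core, which many more sequences match (18.2% of all regions). It was 7.14% over the whole width (3.82% of all regions) and 10.7% over 500 bp around the midpoint (6.73% of all regions). With the whole width searched, the shares of the other 11 motifs all stayed within their Wilson intervals. Few regions were gained and the intervals are wide, so this could hardly have come out otherwise. These results have no measure of depth.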
